A study of Sus scrofa with 3 samples.

Results

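Cadherins, catenins and connexins build the contacts by which neighbouring cells hold together and exchange small molecules. A set of 10 such genes was followed in mesenchymal stem cells (MSC, stromal cells that can form bone, cartilage and fat) from pig fat. The set held the cadherins CDH1, CDH2, CDH6, CDH11 and CDH13, the catenins CTNNB1, CTNNA1 and CTNND1, and the connexins GJA1 and GJC1. Members were taken by gene name, and all 10 were found among the 30477 genes of the table. The labels describe 3 samples of 1 kind, cultures 1, 2 and 3, of MSC derived from adipose tissue of adult pigs. All were grown in advanced MEM with human platelet lysate, a growth supplement made from blood platelets. No treatment, genotype or control group is named, so the data give levels and their spread and no contrast between conditions. Ages, sexes and animals of origin are not stated, and cultures may or may not come from separate animals, so the spread between them may be partly technical.

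Classical cadherins reach across the gap between cells and bind the same cadherin on the neighbour. Inside the cell, beta-catenin (CTNNB1) binds the cadherin tail, alpha-catenin (CTNNA1) couples it to actin, and catenin delta-1 (CTNND1) holds the cadherin at the membrane. Free beta-catenin is also the effector of canonical Wnt signalling in the nucleus. Connexins assemble into gap junction channels, through which ions and small metabolites pass from cell to cell. Epithelia typically carry CDH1 (E-cadherin), whereas mesenchymal cells typically carry CDH2 (N-cadherin) and CDH11 (OB-cadherin, first described in osteoblasts).

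The libraries held 51788677, 62248183 and 64774044 reads over genes in cultures 1, 2 and 3. The unit is RPKM, which divides reads by the length of the gene model and by library size, so levels of different genes can be set side by side. Small non-coding RNAs took 28.3%, 9.12% and 8.36% of the reads, which set culture 1 apart, and the order of the cultures was therefore also taken on reads of protein-coding genes alone. The label fits the markers: 6 of 6 MSC surface markers lay above 1 RPKM, and 0 of 7 epithelial, 0 of 5 leukocyte and 1 of 8 endothelial markers did. That 1, PECAM1, lies over the abundant DDX5, and of the mesothelial list only WT1 was matched, at 0.106 ± 0.0267 RPKM (SD, n = 3). Of 6 smooth muscle and pericyte markers 1 lay above 1 RPKM, 2 below and 3 were undecided. Their summed level was uneven, at 108, 833 and 150 RPKM in cultures 1, 2 and 3, nearly all of it from ACTA2. Over all genes tested 30.6% lay above 1 RPKM and 60.8% below. In a bulk sample, fewer cells carrying a transcript and less transcript per cell cannot be told apart.

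The 10 genes spanned a very wide range of levels, with a single gap junction gene at the top and 3 cadherins at the bottom. GJA1, CDH11, CTNNB1, CTNNA1, CTNND1, CDH13 and GJC1 lay above 1 RPKM, CDH1 and CDH6 lay below, and CDH2 was undecided. This rests on limma's moderated test of log2(RPKM + 0.5) against the value at 1 RPKM, adjusted by Benjamini-Hochberg over 29479 genes with a read, at a threshold of 0.05. Among all tested genes 30.6% lay above 1 RPKM and 60.8% below. The genes tested include non-coding entries, and 19935 of them are protein-coding. Among the protein-coding genes the connexin GJA9, at 0.791 RPKM or a log2(RPKM + 0.5) of 0.34, ranked 9979, near the middle. The median log2(RPKM + 0.5) of the 10 was 4.07, beside -0.68 over all genes tested. The genes were picked with earlier results of these data known, so this height is a description.

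**Figure D1:**
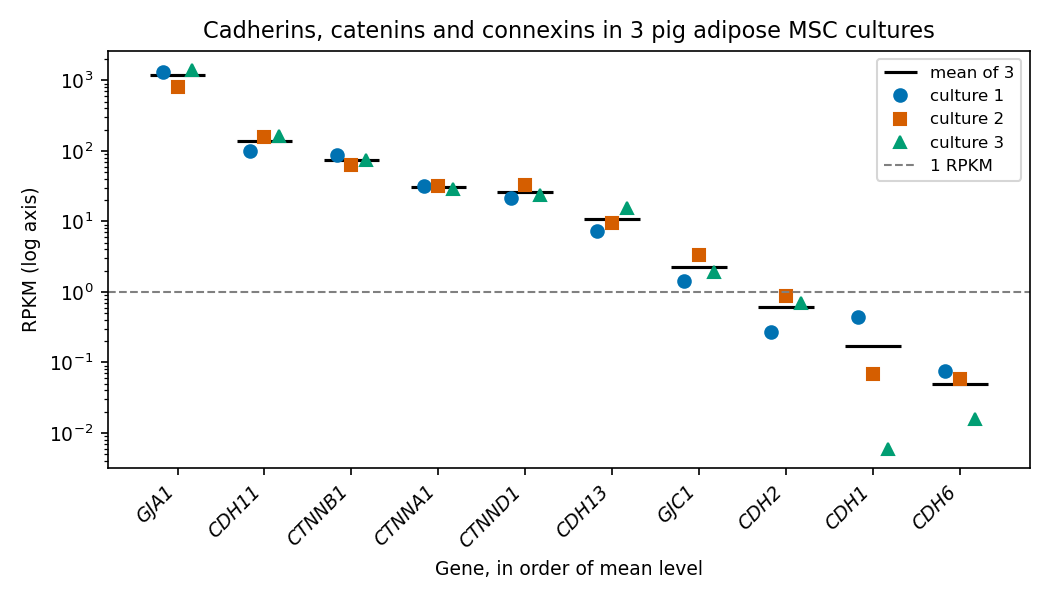
RPKM of each of the 10 genes (log axis), with 1 point per culture and a bar for the mean of 3, genes ordered by mean. GJA1 sits at 797 to 1419 RPKM, the catenins and CDH11 at 21.5 to 163, and CDH2, CDH1 and CDH6 below 1 in each culture.

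CDH11 was by far the most abundant classical cadherin. It is a type II cadherin of mesenchymal cells (ENSSSCG00000002795, susScr11 chromosome 6, 25783595 to 25933634). Its level was 101, 157 and 163 RPKM in cultures 1, 2 and 3, which is 140 ± 34.4 RPKM (SD, n = 3; limma adjusted p = 3.2e-20). Culture 1 was lowest and the other 2 were close together. CDH11 ranked 194 by mean RPKM among 19935 protein-coding genes with a read. Of the summed RPKM of 18 type I and type II cadherins, CDH11 held 97.6%, 98.6% and 99.1% in the 3 cultures. That share does not depend on how the libraries were scaled.

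CDH2 was low for a gene that mesenchymal cells typically carry. N-cadherin (ENSSSCG00000003722, chromosome 6, 112396721 to 112628432) had 0.266, 0.877 and 0.697 RPKM, or 57, 226 and 187 reads, in cultures 1, 2 and 3. No culture reached 1 RPKM, and culture 1 was lowest, as it was for CDH11. The mean of 0.613 ± 0.314 RPKM (SD, n = 3) could not be told from 1 RPKM (limma, adjusted p = 0.057). In 4 alternatives it was called below 1 RPKM. These were a pseudocount of 0.1 or 1 RPKM (limma, adjusted p = 0.032 and 0.030), voom weights (0.033) and protein-coding reads as the total (0.035). Over all alternatives the adjusted p ran from 0.030 to 0.33.

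CDH2 stayed far below CDH11 in each culture. The plain ratio of their RPKM was 0.00264, 0.00559 and 0.00428 in cultures 1, 2 and 3, lowest in culture 1. On the log2(RPKM + 0.5) scale, CDH2 minus CDH11 was -7.04, -6.84 and -7.09, a mean of -6.99 ± 0.14 (SD, n = 3), and the pseudocount draws these values together because CDH2 is low. The sign was the same in 3 of 3 cultures. An exact two-sided sign-flip permutation test over 3 cultures cannot give a p under 0.25, which it gave here (0.33 adjusted over 12 pairs compared).

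CDH1, the cadherin of epithelia, was near background in 2 cultures and not in the other. E-cadherin (ENSSSCG00000025652, chromosome 6, 18075480 to 18155986) had 0.439, 0.0684 and 0.00598 RPKM, from 176, 33 and 3 reads. The exact 95% Poisson intervals were 0.376 to 0.509 RPKM in culture 1, 0.0471 to 0.0961 in culture 2 and 0.00123 to 0.0175 in culture 3, so they did not overlap. Such intervals cover counting error only. They take each read as a separate molecule, so copies made by PCR would make them too narrow.

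Culture 1 stood 6.41-fold above culture 2 for CDH1 (exact 95% interval 4.40 to 9.60) and 73.4-fold above culture 3 (24.7 to 359, against 3 reads). As a gauge of background, the 95th percentile of 104 olfactory receptor genes was 0.164, 0.153 and 0.0532 RPKM. Only the value of culture 1 lies above its own gauge. The 7 other epithelial markers on the list summed to 0.689, 0.631 and 0.394 RPKM, in the same order of cultures and over a smaller range. EPCAM, an adhesion molecule of epithelia, had 0.279, 0.151 and 0.162 RPKM, and the keratin KRT8 had 0.0727, 0.087 and 0.00727 RPKM. EPCAM lay above the gauge of its culture in cultures 1 and 3 and just under it in culture 2, so it did not follow CDH1 in culture 3. The part of epithelial cells in the CDH1 value was not tested. Culture 1 was also the library with the most small RNA reads. Scaled to protein-coding reads, CDH1 had 0.512, 0.0634 and 0.00553 RPKM, with the same order and no smaller a gap.

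The mean of CDH1 was 0.171 ± 0.234 RPKM (SD, n = 3), below 1 RPKM in 3 of 3 cultures (limma, adjusted p = 3.6e-07). Without culture 1 the mean was 0.0372 RPKM. With voom weights the call was lost (limma, adjusted p = 0.057, the largest of the range from 7.6e-13 over the alternatives).

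The order of CDH2 and CDH1 therefore changed between cultures. CDH2 stood at 0.606 of CDH1 in culture 1 (exact 95% interval 0.441 to 0.821), at 12.8 times in culture 2 (8.86 to 19.1) and at 117 times in culture 3 (39.3 to 570). On the log2(RPKM + 0.5) scale, where values this low are drawn together, CDH2 minus CDH1 was -0.29, 1.28 and 1.24. The mean difference of 0.74 ± 0.90 (SD, n = 3) was smaller than its spread, and without culture 1 it was 1.26.

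CDH6, a type II cadherin known from kidney and neural crest, was at background. CDH6 (ENSSSCG00000032931, chromosome 16, 17531952 to 17660079) had 0.0761, 0.0578 and 0.0159 RPKM, from 23, 21 and 6 reads. The mean was 0.0499 ± 0.0309 RPKM (SD, n = 3; limma adjusted p = 7.5e-22 below 1 RPKM). Each value lies under the 95th percentile of olfactory receptor genes in its culture. The gene body also overlaps DROSHA, which had 4.23, 6.87 and 4.33 RPKM, so even these few reads cannot be assigned to CDH6 without a stated strand. CDH1 stood at 5.77 times CDH6 in culture 1 (exact 95% interval 3.72 to 9.34), at 1.18 times in culture 2 (0.665 to 2.15) and at 0.377 times in culture 3 (0.0610 to 1.77). Only the interval of culture 1 leaves out a ratio of 1. Over the 3 cultures the log2(RPKM + 0.5) difference of 0.23 ± 0.41 (SD, n = 3) was smaller than its spread, and its sign varied.

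**Figure D2:**
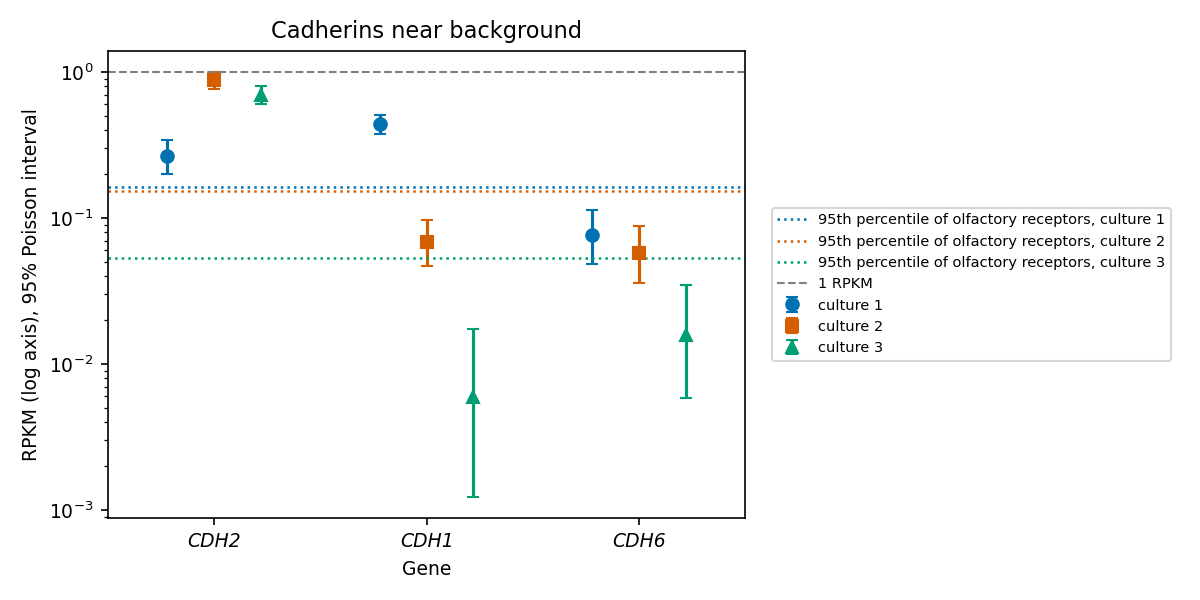
RPKM of CDH2, CDH1 and CDH6 in each culture (log axis) with exact 95% Poisson intervals from the reads. Dotted lines give the 95th percentile of olfactory receptor genes per culture. CDH2 lies above its line in each culture, CDH1 only in culture 1, and CDH6 in none.

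CDH13 was expressed at a moderate level. T-cadherin (ENSSSCG00000002684, chromosome 6, 4808255 to 5832188) lacks a transmembrane tail, is anchored by a lipid and serves as a receptor for adiponectin and low-density lipoprotein. It had 7.21, 9.60 and 15.4 RPKM in cultures 1, 2 and 3, from 1697, 2718 and 4531 reads. Culture 3 was highest and culture 1 lowest, and their values differed 2.13-fold. The mean was 10.7 ± 4.20 RPKM (SD, n = 3; limma adjusted p = 1.3e-12). Its share of variation came closest to standing out among the members tested for spread, but its spread p was 0.17 unadjusted.

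Of the 5 cadherins 4 lie on chromosome 6, where high and low cadherin genes lie side by side. CDH11 at 140 RPKM lies between CDH8 (22923140 to 23279296), at 0.152 ± 0.110 RPKM, and CDH5 (27108609 to 27142180), at 0.0356 ± 0.0261 RPKM. CDH5 is the cadherin of endothelium, and it was below 1 RPKM (limma, adjusted p = 1.2e-26). CDH1 lies 35677 bases before CDH3, the placental cadherin, which had 0.0531 ± 0.0200 RPKM (SD, n = 3 each). CDH6 on chromosome 16 follows CDH18, CDH12, CDH10 and CDH9, which were all below 1 RPKM, at means of 0.0471 to 0.209. CDH3, CDH8 and these 4 are named for their place on the chromosome, after their values were seen, although CDH18 is also on the rule for named genes.

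The wider list of 18 type I and II cadherins held 17 with a read, of which 1 (CDH11) lay above 1 RPKM, 15 lay below and CDH2 was undecided. Over all genes tested 30.6% lay above and 60.8% below. CDH15, the cadherin of muscle, is listed at 0 in each library. CDH24 (0.341 ± 0.0395 RPKM) and CDH18 (0.209 ± 0.115) came next after CDH2 (SD, n = 3 each). The list's median log2(RPKM + 0.5) was -0.84, beside -0.68 over all genes tested, non-coding entries included. A typical member of this family was thus no higher than a typical gene tested, and below the middle of the protein-coding genes.

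Cadherins outside the classical types were spread much as all genes tested were, non-coding entries included. Of 29 matched genes 9 lay above 1 RPKM, 18 below and 2 were undecided, beside 30.6% above and 60.8% below over all genes tested. FAT1, a giant cadherin of cell edges, had 72.7, 207 and 134 RPKM and was thus near the level of CDH11, with 138 ± 67.3 RPKM (SD, n = 3; limma adjusted p = 1.5e-19). The protocadherin PCDH18 (22.1 ± 9.02), FAT4 (14.5 ± 4.41), which acts in planar polarity and growth control, and the calsyntenin CLSTN1 (12.3 ± 3.67) followed, and CDH13 was next. The median of this list was -0.68, the same as over all genes tested and below the middle of the protein-coding genes.

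The catenins, which serve all classical cadherins, lay well above 1 RPKM in each culture. CTNNB1 (ENSSSCG00000011274, chromosome 13, 25137173 to 25208311) had 87.8, 62.3 and 73.4 RPKM in cultures 1, 2 and 3, or 74.5 ± 12.8 RPKM (SD, n = 3; limma adjusted p = 1.7e-19). CTNNA1 (ENSSSCG00000014339, chromosome 2, 140682371 to 140871334) had 31.9, 32.2 and 28.4 RPKM. Its mean of 30.8 ± 2.14 RPKM (SD, n = 3; limma adjusted p = 1.4e-17) had a coefficient of variation of 6.95%, the lowest of the 10 genes on deposited RPKM. Scaled to protein-coding reads, its log2 SD was 0.25. That lay above those of CDH11 (0.19) and CTNND1 (0.24) and below those of the other members tested for spread.

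CTNND1 (ENSSSCG00000013174, chromosome 2, 13143939 to 13209224) had 21.5, 33.3 and 23.9 RPKM, or 26.2 ± 6.23 RPKM (SD, n = 3; limma adjusted p = 7.5e-17). Culture 2 was highest for CTNND1 and lowest for CTNNB1. ULK4, whose body overlaps the end of CTNNB1, had 1.43% of the reads of CTNNB1, and LRRTM2 within CTNNA1 had 0.104% of those of CTNNA1.

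Beta-catenin outweighed the other catenins in each culture. CTNNB1 stood at 2.75, 1.94 and 2.59 times CTNNA1, a log2 difference of 1.25 ± 0.27 (SD, n = 3). CTNND1 minus CTNNB1 was -2.00, -0.89 and -1.60 on the log2 scale, or -1.50 ± 0.56 (SD, n = 3). Both had 1 sign in 3 of 3 cultures, with the smallest p the exact sign-flip permutation test allows, 0.25. CTNNA1 and CTNND1 were not separated: their log2 difference of 0.25 ± 0.30 (SD, n = 3) changed sign in culture 2.

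The sum of the 11 matched catenins and relatives was 162, 164 and 156 RPKM, with CTNNB1 holding 54.2%, 38.1% and 46.9% of it in cultures 1, 2 and 3. The sum was thus level on deposited RPKM, and the share of CTNNB1 was lowest in culture 2. How level the sum is depends on the scaling. Scaling to protein-coding reads divides cultures 1, 2 and 3 by 0.857, 1.08 and 1.08. Of the 11, 6 lay above 1 RPKM, 4 below and 1 was undecided, with a list median of 2.56. Over all genes tested 30.6% lay above and 60.8% below. After the 3 catenins came CTNNBL1, a splicing-associated protein related to beta-catenin by its repeats, at 13.8 ± 3.95 RPKM (SD, n = 3).

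CDH11 and CTNNB1, a cadherin and its direct partner, were neighbours in level. CDH11 stood at 1.15, 2.52 and 2.22 times CTNNB1, a log2 difference of 0.89 ± 0.61 (SD, n = 3) that was positive in 3 of 3 cultures. This order rests on the length of the gene models, 5263 bases for CDH11 and 9326 for CTNNB1. In plain reads, CDH11 had 27421, 51416 and 55518 and CTNNB1 had 42411, 36197 and 44335, so in culture 1 the order turned round.

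GJA1, the most widespread connexin, was the most abundant of the 10 genes. It lies on chromosome 1 (ENSSSCG00000004241, 40988515 to 41002137), and no other entry of the table overlaps it. Its level was 1321, 797 and 1419 RPKM in cultures 1, 2 and 3, from 236938, 171913 and 318390 reads. Culture 2 was lowest, and its exact 95% Poisson interval (794 to 801 RPKM) was far from those of the others. That interval covers counting error only. An upper-tail F test of the spread of GJA1 between cultures gave an unadjusted p of 0.73. The mean was 1179 ± 334 RPKM (SD, n = 3; limma adjusted p = 4.6e-21 above 1 RPKM), rank 18 among protein-coding genes with a read.

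GJC1, a connexin known from vascular smooth muscle and the heart's conduction system, was the only other connexin called above 1 RPKM among those matched by name. It lies on chromosome 12 (ENSSSCG00000021306, 18526068 to 18560220) and had 1.45, 3.39 and 1.94 RPKM, from 668, 1879 and 1121 reads. Culture 2 was highest, the reverse of GJA1. The mean of 2.26 ± 1.01 RPKM (SD, n = 3) lay above 1 RPKM in 3 of 3 cultures (limma, adjusted p = 0.0040), and the call was lost without culture 2 (adjusted p = 0.15; 0.00012 to 0.15 over the alternatives). ACTA2, which makes up nearly all of the summed smooth muscle and pericyte markers, was also highest in culture 2, at 107, 817 and 143 RPKM. The part of smooth muscle cells in the level of GJC1 was not tested.

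The distance between the connexins was large. GJA1 stood at 913, 235 and 731 times GJC1 in cultures 1, 2 and 3, a log2 difference of 8.76 ± 0.94 (SD, n = 3), positive in 3 of 3 cultures. The ratio was lowest in culture 2. Of the summed RPKM of 21 connexins and pannexins, GJA1 held 99.6%, 99.1% and 99.6% and GJC1 held 0.109%, 0.421% and 0.136%.

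The rest of the matched channel family was low. Of 24 genes fixed 21 were matched by name, and GJB2, GJD3 and GJD4 were not, so their levels are not known. Of the 21 genes 3 lay above 1 RPKM, 17 below and 1 was undecided, with a list median of -0.88. Over all genes tested 30.6% lay above and 60.8% below. The 3 were GJA1, GJC1 and PANX1, a pannexin that forms channels to the outside, at 1.72 ± 0.196 RPKM (SD, n = 3; limma adjusted p = 0.035). Leaving out culture 2 or culture 3 ended the call for PANX1 (limma, adjusted p = 0.15 and 0.096). GJA9 was undecided at 0.791 ± 0.279 RPKM.

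**Figure D3:**
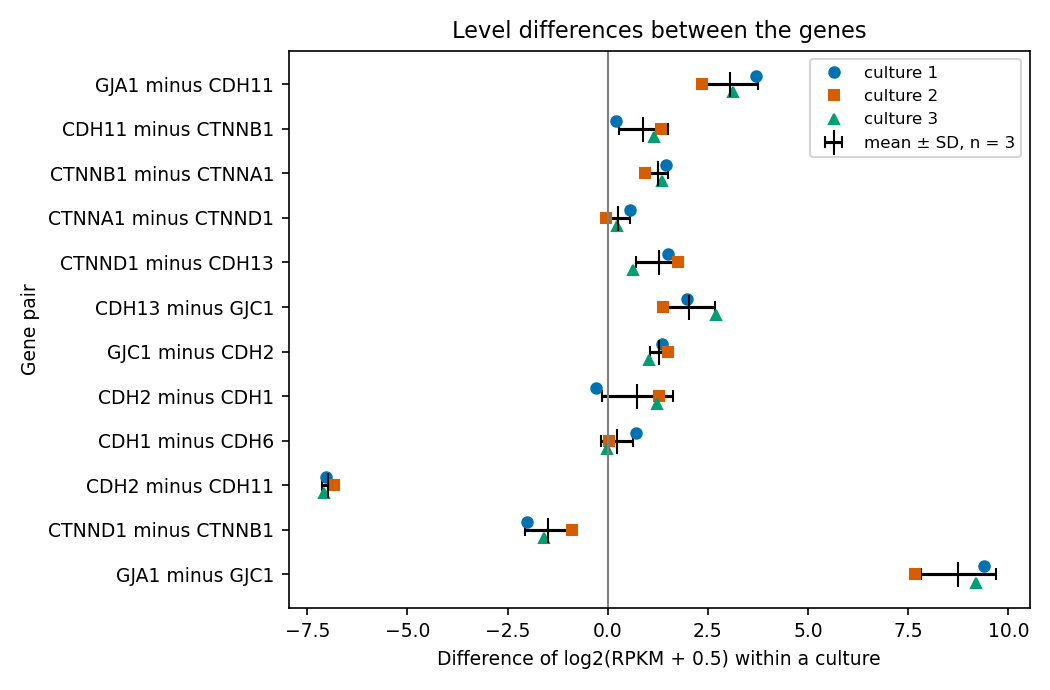
Difference of log2(RPKM + 0.5) between genes within each culture, for the 9 pairs next to each other in the order of level and 3 other named pairs, with mean ± SD over 3 cultures. CTNNA1 minus CTNND1, CDH2 minus CDH1 and CDH1 minus CDH6 have points on both sides of 0, and the other pairs do not.

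Along the order of levels, 6 of the 9 neighbouring pairs kept 1 sign in 3 of 3 cultures and 3 did not. The step from GJA1 down to CDH11 was the largest, at 3.06 ± 0.69 on the log2 scale (SD, n = 3). The steps from CTNND1 to CDH13 (1.29 ± 0.59), from CDH13 to GJC1 (2.02 ± 0.66) and from GJC1 to CDH2 (1.29 ± 0.24) also exceeded their SD. The 12 pairs have adjusted p-values of 0.33 to 0.75 in the exact sign-flip permutation test, which 3 cultures cannot take lower.

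No member passed the test for varying more between cultures than other genes of like level. In the spread test, an upper-tail F test of the variance against limma's trended prior, 7 members had a mean of at least 1 RPKM and entered with 10474 genes. None of the 7 passed at an adjusted p of 0.05, and 0% of all tested genes did. At an unadjusted p under 0.05 the members also gave 0 of 7, beside 5.93% of all genes. Unadjusted values ran from 0.17 for CDH13 to 0.92 for CTNNA1.

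The log2 SD of GJA1 was 0.45, beside a prior SD of 0.77 for genes of its level. That of CDH13 was 0.53 beside 0.32, and that of GJC1 was 0.51 beside 0.36. CTNNA1 had 0.10 beside 0.34.

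Which culture was highest depended on the scaling for part of the genes. CDH11 and CDH13 were highest in culture 3 and lowest in culture 1 on deposited RPKM, scaled to protein-coding reads and with median-of-ratios factors alike. GJA1 and CTNNB1 were lowest in culture 2 and GJC1 was highest there under the same 3 scalings. The highest culture for GJA1 was culture 3 on deposited RPKM and culture 1 when scaled to protein-coding reads (1541, 739 and 1312). For CTNNA1 the order changed with each scaling, and for CTNND1 the lowest culture did. Scaling to protein-coding reads moved the median gene of at least 1 RPKM by 0.20, -0.10 and -0.10 on the log2 scale in cultures 1, 2 and 3, and median-of-ratios factors moved it by 0.0056, -0.22 and 0.21.

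**Figure D4:**
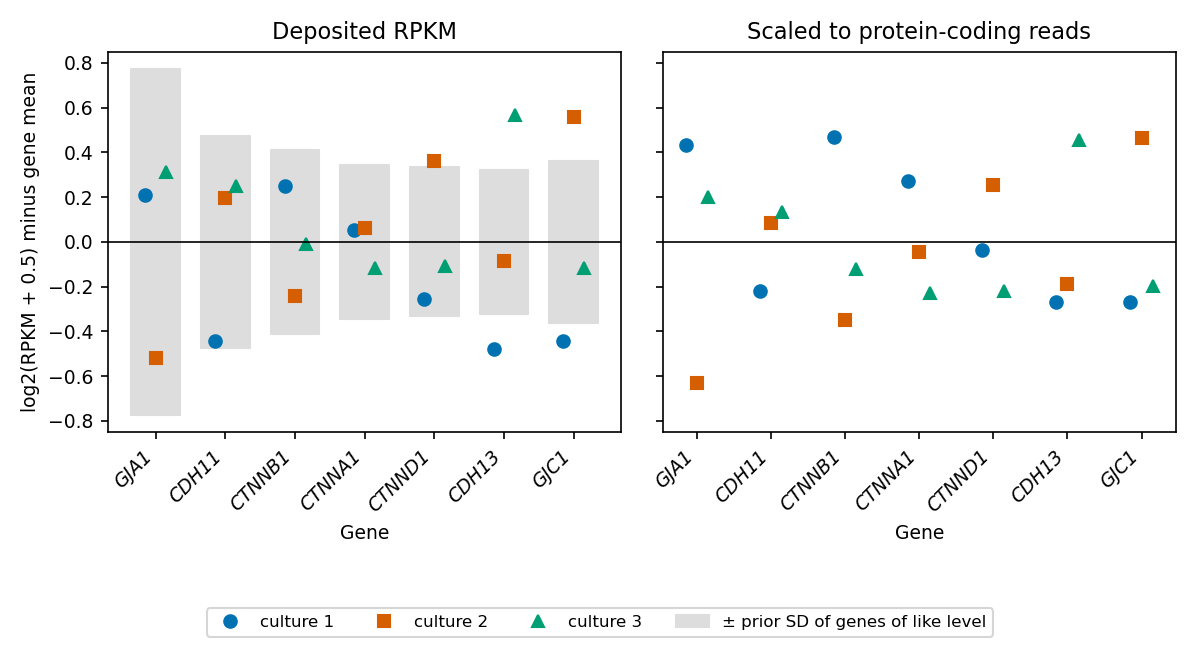
Deviation of each culture from the gene's own mean log2(RPKM + 0.5), for the 7 genes averaging 1 RPKM or more, on deposited RPKM (left, grey bands give ± the prior SD of genes of like level) and scaled to protein-coding reads (right). Culture 2 is lowest for GJA1 and CTNNB1 and highest for GJC1 in both panels.

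The genes around these junctions were expressed in part. Over all lists, 148 of 164 fixed genes were matched by name and 146 had a read. Leaving out the 10 members, 55 of 136 lay above 1 RPKM, 72 below and 9 were undecided, with a median of -0.21. Over all genes tested, non-coding entries included, 30.6% lay above and 60.8% below, and these shares stand beside each list that follows. The lists differed widely. Families of adhesion molecules were mostly below 1 RPKM, as most genes tested were, and shared partners were mostly above.

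Actin linkers and nectins had 7 of 10 above 1 RPKM and 2 below, with a list median of 4.31. The actin crosslinker ACTN1 (74.3 ± 38.7 RPKM), vinculin (VCL, 67.7 ± 22.6), which binds stretched alpha-catenin, and LIMA1 (63.9 ± 10.3), which links alpha-catenin to actin, were highest, followed by VASP (20.6 ± 4.94), an actin elongation factor. Each of the 4 averaged near or below CTNNB1 and all but VASP above CTNNA1. AP3M1, over VCL, had 13.3% of its reads.

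Among zonula and tight junction genes 7 of 15 lay above 1 RPKM and 7 below (median 1.28). TJP1, a scaffold that also binds the tail of GJA1, had 24.9 ± 8.0 RPKM, and the junctional adhesion molecules JAM3 and F11R had 14.0 ± 1.84 and 11.1 ± 3.19 (SD, n = 3 each). NCAPD3, over JAM3, had 19.4% of its reads. CLDN1, a claudin of epithelial barriers, had 3.77, 27.7 and 9.82 RPKM, with culture 2 highest (limma, adjusted p = 0.0066 above 1 RPKM). Its spread had an unadjusted p of 0.0074 and did not pass after adjustment.

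Genes of desmosomes, the junctions that tie intermediate filaments together, were mostly below 1 RPKM. Of 12 genes 2 lay above 1 RPKM and 9 below (median -0.88). The plakophilin PKP2 had 9.01 ± 1.81 RPKM and the desmocollin DSC2 had 5.57 ± 2.85. The cytolinker PPL was undecided at 0.942 ± 0.344. The desmoglein DSG2 was below at 0.460 ± 0.225 (SD, n = 3 each), a call (limma, adjusted p = 0.0044) that ended when culture 2 or culture 3 was left out (0.076 and 0.084). DSP, named after its values were seen, had 0.0757, 0.0315 and 0.00318 RPKM in cultures 1, 2 and 3.

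Repressors of CDH1 transcription were present. Of the 6 genes fixed 5 were matched, and 5 of 5 lay above 1 RPKM (median 3.87). ZEB2 had 14.4, 26.8 and 28.9 RPKM, TWIST2 had 32.4, 10.6 and 8.11, ZEB1 had 15.9, 15.9 and 17.3 and SNAI2 had 18.9, 8.58 and 13.6 RPKM in cultures 1, 2 and 3. In culture 1, where CDH1 was highest, TWIST2 and SNAI2 were also highest, and ZEB2 and SNAI1 were lowest. SNAI1, named after its values were seen, had 2.98, 7.17 and 8.22 RPKM. An unnamed entry over ZEB1 had 36.0% of its reads.

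**Figure D5:**
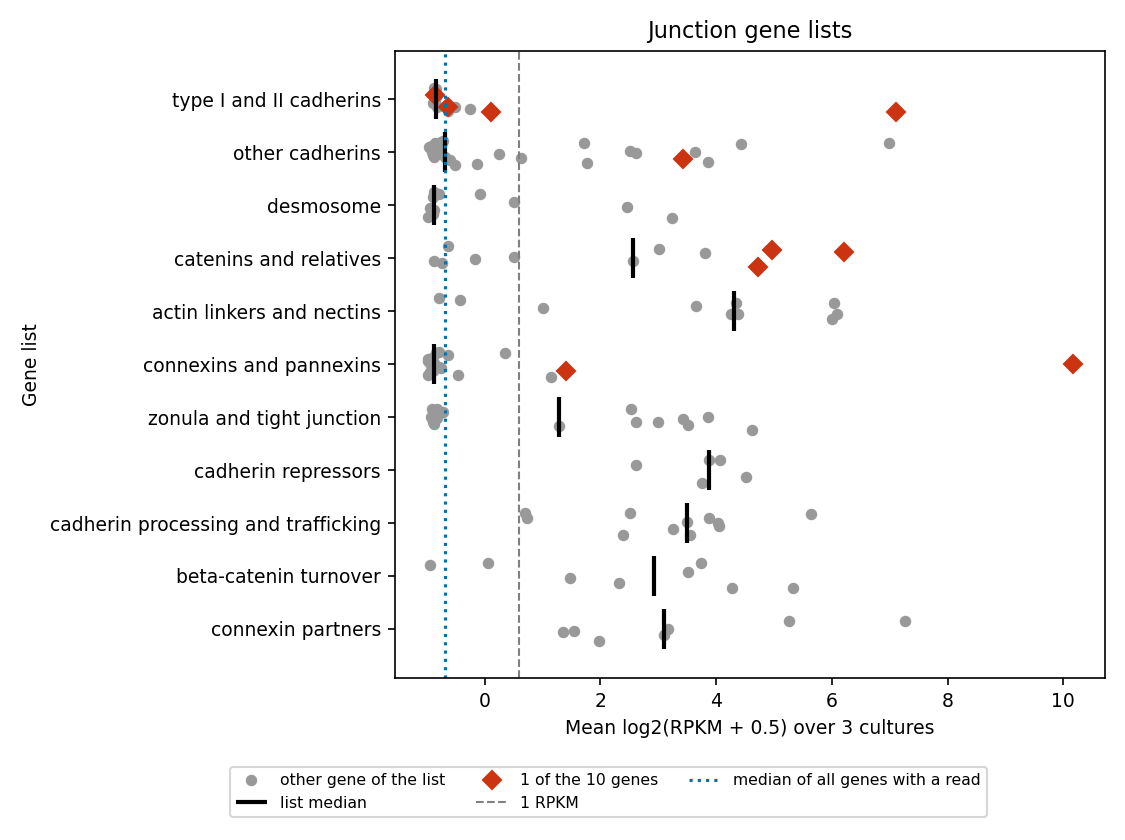
Mean log2(RPKM + 0.5) over 3 cultures of each gene with a read, by list, with the 10 genes as red diamonds, list medians as black bars, 1 RPKM as a dashed line and the median of all genes with a read as a dotted line. GJA1 and CDH11 stand far to the right of lists whose medians lie at -0.88 and -0.84.

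Genes of cadherin processing had 9 of 11 above 1 RPKM and 0 below (median 3.50). They included the gamma-secretase subunits APH1A (49.4 ± 6.40 RPKM) and NCSTN (14.5 ± 3.59) and the recycling GTPase RAB11A (15.8 ± 2.0). NCSTN overlaps COPA, which had 819% of its reads, so its level is uncertain, and an unnamed entry over APH1A had 29.9%.

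For the turnover of beta-catenin 6 of 8 genes lay above 1 RPKM and 2 below (median 2.92). The kinases CSNK1A1 (39.5 ± 3.06 RPKM), GSK3B (19.1 ± 3.61) and GSK3A (11.1 ± 2.39) mark beta-catenin for destruction on the scaffold APC (14.0 ± 6.48; SD, n = 3 each). REEP5, over APC, had 198% of its reads and ZNF526, over GSK3A, had 30.6%.

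Connexin partners were above 1 RPKM in 7 of 7 matched cases (median 3.10). CAV1, a caveolin that binds GJA1, had 157 ± 45.4 RPKM. The ubiquitin ligases SMURF2 and NEDD4, which act in connexin turnover, had 41.0 ± 17.7 and 9.03 ± 3.77, and the actin-binding DBN1 had 8.22 ± 1.96 (SD, n = 3 each). The level of GJA1 exceeded that of each of them in every culture.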

How the data were processed

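RNA of 3 pig adipose MSC cultures was sequenced by the submitters from 0.5 µg of total RNA (miRNeasy extraction, TruSeq V2 libraries), per the labels' protocols. The authors deposited RPKM per Ensembl gene, per the file headers, on susScr11, per the submitters' processing notes. The sources used here name no aligner, counter, annotation release or strand setting. RPKM times model length plus 1 base gave whole reads for 100% of values (tolerance 1e-06), which supplied the reads quoted. Both tests took log2(RPKM + 0.5) and trended robust priors (R 4.3.3, limma 3.58.1) and were tested on simulated data. For the spread test the planted spreads were far wider than those of the members, so its power at their spreads is not known. Exact permutation tests, intervals and tables used Python 3.11.15 with scipy 1.17.1. The pseudocount understates differences of genes near 0.5 RPKM. A gene model that includes seldom used exons has a lower RPKM.

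Members and lists were chosen with earlier results of these data known. Besides the 10 members, the 4 genes of highest mean RPKM per list and any classical cadherin of at least 1 RPKM are named. A gene that this rule names is not reported here. Unnamed entries were named through a table of Ensembl symbols (785 genes). Alternatives covered the pseudocount, filters, scaling (median-of-ratios, TMM, protein-coding reads), voom weights and leaving out each culture.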

Additional observations from a re-analysis of the deposited data

How the results depend on the processing

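The members above 1 RPKM numbered 7 under every alternative run except without culture 2, where GJC1 dropped out and 6 were called. The size of the p-values depended on the setting. For GJA1 the limma adjusted p ran from 2.8e-226 to 3.7e-06 over the alternatives, all on the same 3 cultures or fewer. The number below 1 RPKM moved from 2 to 1 when only genes averaging 0.1 RPKM or more were fitted, which leaves CDH6 out, and the number of wider junction genes below 1 RPKM moved from 74 to 18, since fewer genes were tested. Otherwise 2 or 3 members were below. With voom weights the 2 were CDH2 and CDH6, since CDH1 lost its call, and elsewhere the number depended on CDH2. The wider counts ran from 60 to 63 above and from 71 to 75 below. Of 37 other named genes 2, PANX1 and DSG2, changed their call under any alternative. CDH1 minus CDH6 reversed without culture 1: leaving out a culture gave log2 differences of -0.00028 to 0.37, and the other pairs kept their sign under each pseudocount and each left-out culture. The number of members past the spread threshold stayed 0 in each of the 9 alternatives. The limits are the depth behind CDH1 and CDH6, with 3 and 6 reads in culture 3, and the small number of cultures. No paired contrast between conditions was possible because the labels name a single group.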
